A study of Mus musculus with 9 samples.

Results

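The 32 genes described here mark spermatogonia, the mitotic germ cells at the base of the seminiferous tubule, or act in them. They were taken by symbol from a table of 54532 genes, and all 32 matched exactly 1 row. The 14 regulators of undifferentiated cells are Id4, Zbtb16, Etv5, Bcl6b, Egr4, Sall4, Nanos2, Nanos3, Lin28a, Foxo1, Pou5f1, Utf1, Neurog3 and Prdm1. The 7 receptors, surface proteins and retinoic acid binding proteins are Gfra1, Ret, Kit, Cdh1, Epcam, Rarg and Crabp1. The 7 genes of differentiation and meiotic entry are Stra8, Sohlh1, Sohlh2, Dmrt1, Rhox13, Dnmt3b and Dazl, and the remaining 4 are the cyclins Ccnd1 and Ccnd2 and the enzymes Uchl1 and Upp1.

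RNA sequencing covered 9 mouse libraries labelled as male germ cells and PD 35, read here as postnatal day 35, with 3 libraries in each of 3 groups. Clpx was targeted for deletion in germ cells in the ClpX cKO group and Clpp in the ClpP cKO group, and the controls are labelled WT. Both deletions were made with Stra8-Cre, a recombinase driven by the promoter of Stra8, which is itself among the 32 genes. The sources used here do not give the floxed alleles, whether the controls carried Cre, the strain, how cells were isolated, or whether the libraries of a group came from separate animals. The p-values below measure the spread among these libraries, which may be technical. ClpX is the unfoldase, and ClpP the protease, of a mitochondrial matrix complex.

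Spermatogonial stem cells depend on GDNF from Sertoli cells, which signals through the receptor pair GFRA1 and RET and maintains factors such as ID4, ETV5, BCL6B and ZBTB16. Retinoic acid, acting through receptors such as RARG, moves undifferentiated cells towards the KIT-positive state, in which SOHLH1, SOHLH2 and cyclin D2 act. A later retinoic acid signal induces STRA8, which sets off meiosis in the last premeiotic cells, the preleptotene spermatocytes.

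Values are FPKM, reads scaled by gene length and by a total for each library, so levels of different genes can be compared. Gene reads, recovered from FPKM and gene length, totalled 14334436 to 17021685 per library. Clpx averaged 13.4 ± 2.14 FPKM in ClpX cKO, 37.5 ± 2.42 in ClpP cKO and 56.5 ± 2.41 in controls, and Clpp averaged 13.1 ± 0.852, 5 ± 1.24 and 9.06 ± 0.522 in the same order (SD, n = 3 each). The targeted RNA was thus lower than in controls but not absent. Clpx was also lower in ClpP cKO, and Clpp higher in ClpX cKO, than in controls. The cell type label was checked against marker lists. Sertoli cell markers (16 genes, none at 0 in every library) summed to 849 to 1170 FPKM in ClpX cKO, 687 to 759 in ClpP cKO and 485 to 507 in controls. Elongating spermatid markers (12 genes, none at 0) summed to 1950 to 2930 FPKM in ClpX cKO, 4970 to 5890 in ClpP cKO and 8520 to 18300 in controls, where Control 3 was the lowest. RNA of Sertoli and spermatid markers was thus present in material labelled spermatocytes.

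Promoter windows of 4 of the genes are shown because their levels moved in opposite directions: Stra8, Sohlh1 and Kit were higher, and Gfra1 was lower, in ClpX cKO than in controls. The Gfra1 call was not stable and was lost under several alternatives given below. Each window runs from 250 bases before to 50 bases after a transcription start, from RefSeq on GRCm38.p6, read 5′ to 3′ on the strand of the gene. Capitals mark the retinoic acid receptor half-site AGGTCA and the E-box CANNTG, the class of sequence that basic helix-loop-helix proteins such as SOHLH1 and SOHLH2 bind, both searched on both strands. The Stra8 (chr6:34920698-34920997, + strand) and Gfra1 (chr19:58455349-58455648, - strand) windows, and that of Kit (chr5:75574737-75575036, + strand), follow RefSeq starts that lie inside the gene bounds of the deposited table. The window of Sohlh1 is chr2:25847199-25847498 (- strand).
Stra8: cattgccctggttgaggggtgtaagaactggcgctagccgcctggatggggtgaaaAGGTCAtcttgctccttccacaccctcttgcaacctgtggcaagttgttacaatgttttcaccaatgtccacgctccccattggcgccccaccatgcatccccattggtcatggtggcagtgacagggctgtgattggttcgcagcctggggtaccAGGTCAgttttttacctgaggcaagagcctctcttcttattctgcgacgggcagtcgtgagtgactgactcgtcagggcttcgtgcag
Sohlh1: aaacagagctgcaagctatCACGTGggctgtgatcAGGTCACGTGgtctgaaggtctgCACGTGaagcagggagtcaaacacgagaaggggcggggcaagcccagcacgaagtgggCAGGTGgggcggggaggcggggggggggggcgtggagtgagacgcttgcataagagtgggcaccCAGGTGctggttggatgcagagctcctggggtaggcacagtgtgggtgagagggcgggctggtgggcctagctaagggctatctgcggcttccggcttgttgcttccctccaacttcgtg
Kit: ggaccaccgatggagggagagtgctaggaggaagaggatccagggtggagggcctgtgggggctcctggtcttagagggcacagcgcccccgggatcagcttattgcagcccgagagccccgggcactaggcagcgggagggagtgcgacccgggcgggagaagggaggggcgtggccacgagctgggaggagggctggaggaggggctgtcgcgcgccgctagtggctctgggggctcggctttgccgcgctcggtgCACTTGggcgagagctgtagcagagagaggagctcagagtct
Gfra1: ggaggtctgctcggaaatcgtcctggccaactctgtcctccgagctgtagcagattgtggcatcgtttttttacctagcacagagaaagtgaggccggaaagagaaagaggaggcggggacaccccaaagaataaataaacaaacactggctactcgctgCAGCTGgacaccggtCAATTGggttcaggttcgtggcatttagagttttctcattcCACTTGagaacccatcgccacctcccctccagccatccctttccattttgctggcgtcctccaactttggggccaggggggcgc
The Stra8 window held 2 AGGTCA half-sites, at 194 and 38 bases before the start (positions -194 and -38 in the window), and no CANNTG. The Sohlh1 window held 5 CANNTG sequences, of which 3 were CACGTG, and 1 AGGTCA that overlaps a CACGTG. The Kit window had 1 CANNTG and the Gfra1 window had 3, with no AGGTCA in either. Of 32851 RefSeq windows of the same length, 72.3% held CANNTG, 7.15% held CACGTG and 16.3% held AGGTCA. Windows were found for 24 of the 32 genes (30 windows), and of these 30 windows 22 (73.3%) held CANNTG, 2 (6.67%) held CACGTG and 6 (20%) held AGGTCA, so the letters were about as common there as in all windows.

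In controls the genes spanned a wide range of levels. Dazl, an RNA-binding protein of germ cells from spermatogonia into meiosis, was the most abundant at 54.2 ± 2.65 FPKM (SD, n = 3), followed by Uchl1 at 28.3 ± 3.7, Epcam at 17.7 ± 2.13 and Dmrt1 at 11.4 ± 0.896. Id4, Stra8 and Egr4 came next at 10 ± 0.453, 9.57 ± 0.396 and 9.16 ± 1.01 FPKM, with overlapping libraries. At the other end, 7 genes had a mean under 1 FPKM over the 9 libraries (Pou5f1, Ret, Upp1, Cdh1, Neurog3, Prdm1 and Nanos2) and were not tested. The other 25 passed that filter. Of these, Gfra1 and Bcl6b averaged under 1 FPKM in ClpX cKO (0.889 and 0.858) and Utf1 in ClpP cKO (0.885) and marginally in controls, so these 3 passed through the groups where they were higher.

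Summed over all 32 genes, reads made up 0.0941%, 0.114% and 0.117% of gene reads in the 3 ClpX cKO libraries, 0.0817%, 0.09% and 0.0891% in ClpP cKO, and 0.0533%, 0.0542% and 0.0571% in controls. The groups did not overlap on this measure. Dazl supplied more reads than any other member, and without it the summed level was 197 to 244 FPKM in ClpX cKO, 172 to 202 in ClpP cKO and 137 to 151 in controls. These values are relative to a total, so fewer reads of other genes also raise them. In such bulk libraries a change in the number of spermatogonia, in RNA per cell or in the RNA of other cells cannot be told apart.

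**Figure D1:**
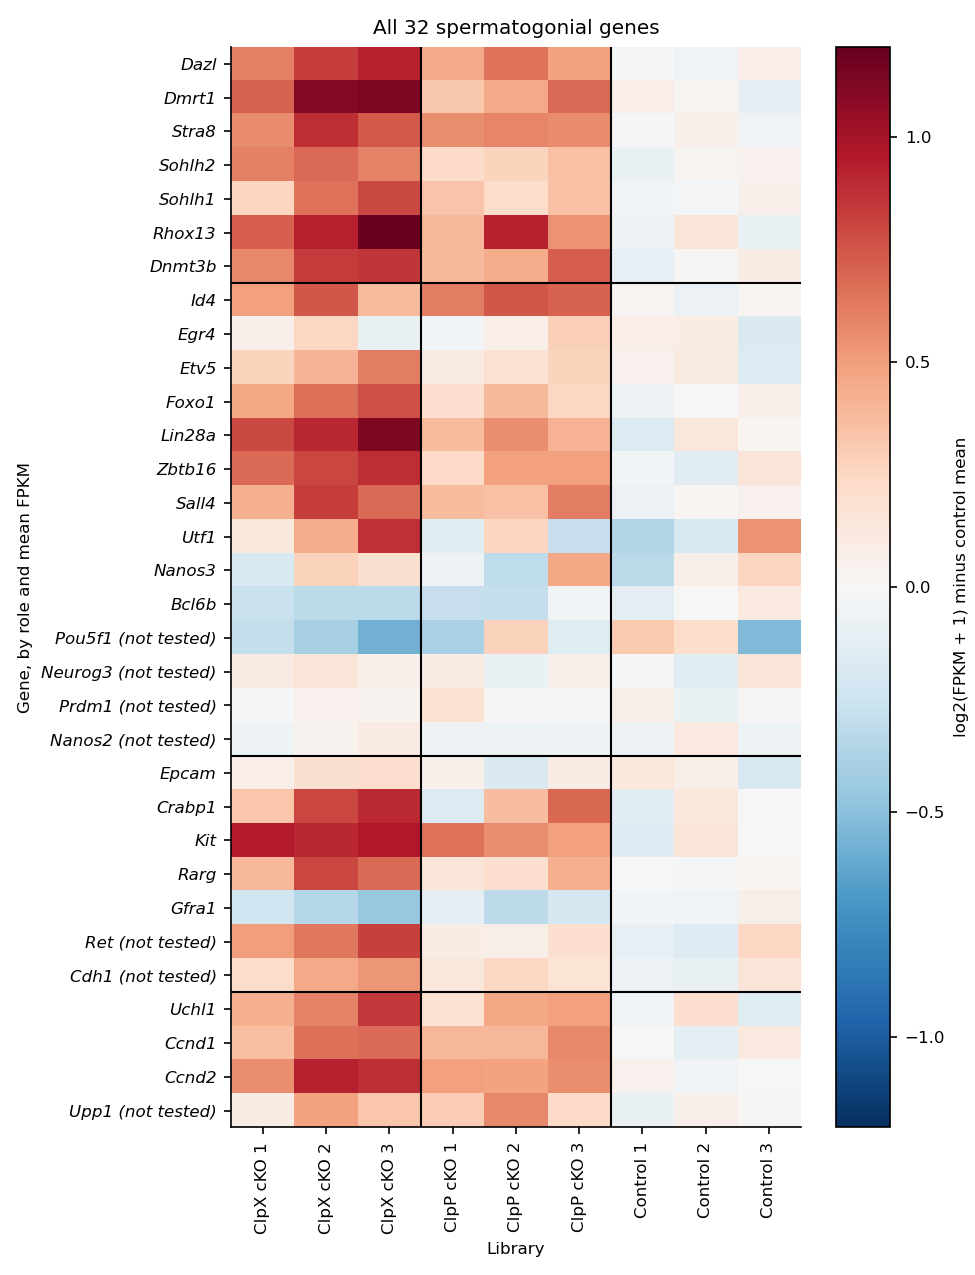
Heat map of all 32 spermatogonial genes (rows, grouped by role and ordered by mean FPKM) in the 9 libraries (columns), coloured by log2(FPKM + 1) minus the control mean of the gene. Most rows are red in both knockouts, the tested genes Gfra1 and Bcl6b are blue in all 3 ClpX cKO libraries, and ClpX cKO 1 is paler than ClpX cKO 2 and 3 in most rows.

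In ClpX cKO most tested spermatogonial genes rose. Of 25 tested members 19 were called higher and 2 lower than in controls, against 32.1% called higher and 33.5% called lower (65.6% in all) among the 17266 tested genes, and 40.1% higher and 30.5% lower among the 12827 protein-coding ones (limma, Benjamini-Hochberg adjusted p under 0.05 over all tested genes). Their median log2 change was 0.63, against 0.11 for all tested protein-coding genes. In ClpP cKO 13 of 25 were called higher and 0 lower, with 20.7% and 24.0% called among all tested genes and 25.8% and 23.5% among protein-coding ones. The median was 0.37, against 0.08 for protein-coding genes, and 16 members, all higher, had an unadjusted p under 0.05, as did 54.5% of all tested genes. Of the 25 genes, 13 were called higher in both knockouts, 6 were called higher and 2 lower in ClpX cKO alone, and 4 (Egr4, Nanos3, Utf1 and Epcam) in neither. The 2 lower calls, of Gfra1 and Bcl6b, were not stable: 0 members were called lower in ClpX cKO without the filter, under own-total scaling or under quantile normalization, each with 20 called higher. In these fits 29.1%, 67.4% and 63.6% of all genes were called in either direction. Both comparisons use the same 3 control libraries. For 19 tested members all 3 ClpX cKO libraries lay above all controls and for 2 below, beside 34.8% and 35.0% of all tested genes. In ClpP cKO it was 16 above and 1 below, beside 31.2% and 30.5%. Separation of a single gene from the controls, as given below, was thus common among all tested genes.

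Sertoli cell markers moved with this result. All 14 tested Sertoli markers were called higher in each knockout, with medians of 0.95 in ClpX cKO and 0.54 in ClpP cKO. All 12 elongating spermatid markers were called lower, with medians of -2.33 and -1.24 in the same order. The part of a changed mixture of cells in the changes of the spermatogonial genes was not tested. Several of the 32 genes are known from other cells of the testis too, such as Dmrt1 from Sertoli cells and Kit from Leydig cells.

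**Figure D2:**
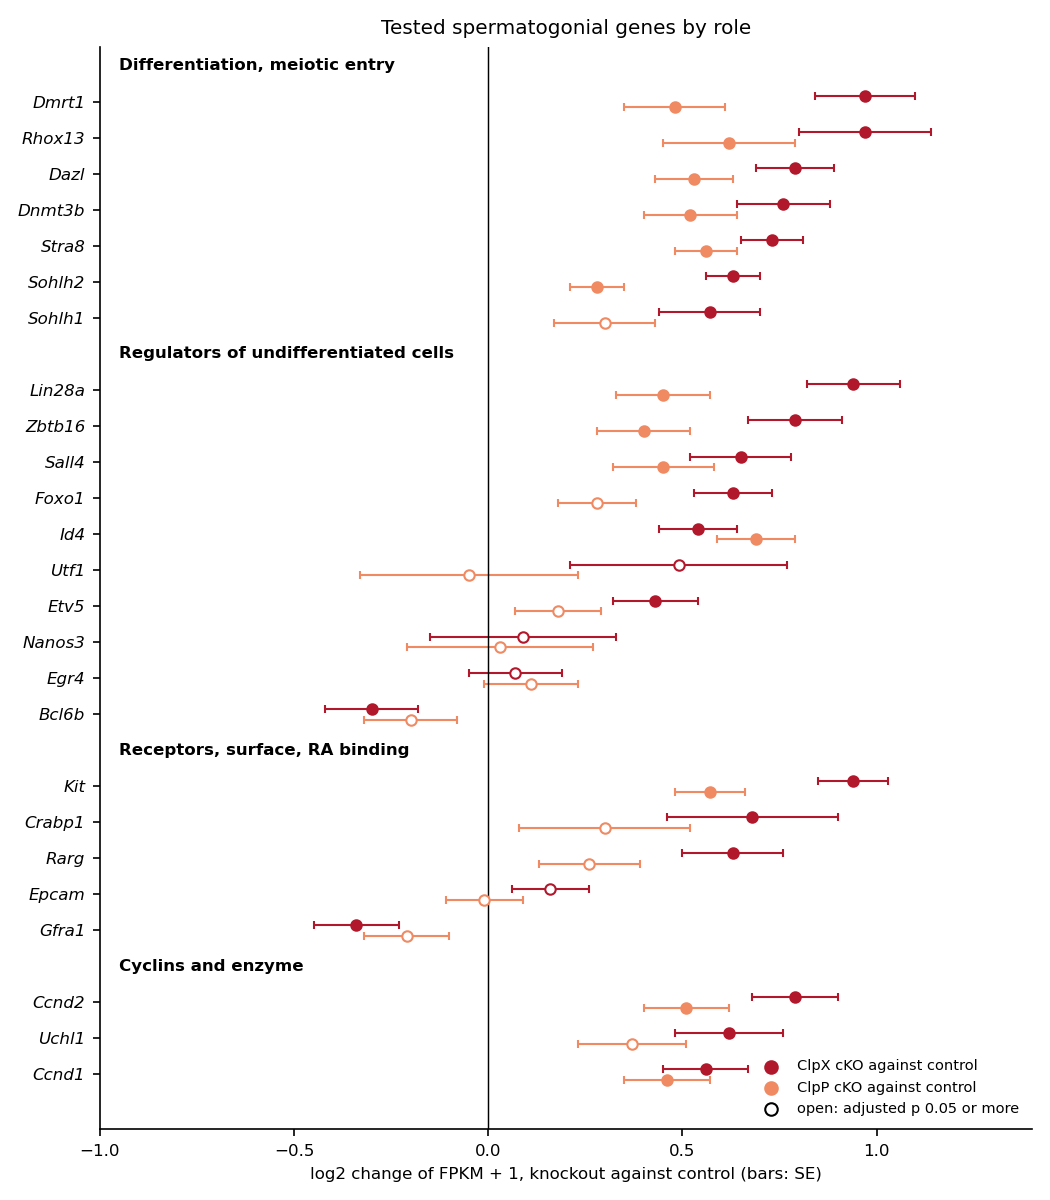
Log2 change of FPKM + 1 against control (horizontal axis, bars are SE) for the 25 tested spermatogonial genes, in ClpX cKO (dark red) and ClpP cKO (orange), grouped by role. Filled points passed an adjusted p of 0.05. All 7 genes of differentiation lie right of 0 in both knockouts, and Gfra1 and Bcl6b lie left of it.

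Genes of differentiation and meiotic entry rose in ClpX cKO and, with 1 exception, in ClpP cKO. All 7 were called higher in ClpX cKO (median 0.76) and 6 of 7 in ClpP cKO (median 0.52), against 40.1% and 25.8% of tested protein-coding genes. Stra8 (ENSMUSG00000029848, chromosome 6, 34920163 to 34939344 on GRCm38), the retinoic acid induced switch of meiotic entry, had 14.6, 18.5 and 16.6 FPKM in ClpX cKO, 14.5, 14.8 and 14.6 in ClpP cKO, and 9.41, 10 and 9.28 in controls. The 6 knockout libraries all lay above the 3 controls, and the pair of knockout groups overlapped. Stra8 rose by 0.73 in ClpX cKO (log2, SE 0.08, adjusted p = 4.5e-04) and by 0.56 in ClpP cKO (SE 0.08, adjusted p = 0.0086).

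Dmrt1 (ENSMUSG00000024837, chromosome 19, 25505618 to 25604329), a DM domain factor that governs the choice between mitosis and meiosis in spermatogonia, was at 19.2, 25.5 and 26.1 FPKM in ClpX cKO, 14.5, 16 and 18.8 in ClpP cKO, and 12.1, 11.7 and 10.4 in controls. The 3 groups did not overlap. Its change of 0.97 (SE 0.13, adjusted p = 5.6e-04) in ClpX cKO was among the largest of the 25. In ClpP cKO it was 0.48 (SE 0.13, adjusted p = 0.022), a call that was lost without Control 2 (adjusted p = 0.051), Control 3 (0.061), ClpP cKO 2 (0.059) or ClpP cKO 3 (0.075).

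Rhox13, an X-linked homeobox gene of differentiating spermatogonia, had 6.57, 7.83 and 10.1 FPKM in ClpX cKO, 5.09, 7.78 and 5.71 in ClpP cKO, and 3.43, 4.11 and 3.35 in controls. It rose by 0.97 in ClpX cKO (SE 0.17, adjusted p = 0.0015) and by 0.62 in ClpP cKO (SE 0.17, adjusted p = 0.021), on only 138 reads over the 3 controls. ClpP cKO 2 stood apart from the other ClpP cKO libraries, and without it the ClpP cKO change was 0.47 (adjusted p = 0.07). Nor was this call made without Control 1, Control 3 or ClpP cKO 3, where the change was 0.59, 0.58 and 0.66.

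The helix-loop-helix partners SOHLH1 and SOHLH2 drive the exit from the undifferentiated state and bind the Kit gene. Sohlh2 was at 12.3, 13 and 12.2 FPKM in ClpX cKO, 9.24, 9.52 and 10.1 in ClpP cKO, and 7.24, 7.92 and 8.04 in controls, with no overlap between the groups. It rose by 0.63 in ClpX cKO (SE 0.07, adjusted p = 4.5e-04) and by 0.28 in ClpP cKO (SE 0.07, adjusted p = 0.014), where the call was lost without Control 1 (adjusted p = 0.051) or ClpP cKO 3 (0.053). Sohlh1, whose promoter window carries the 3 CACGTG sequences, had 6.86, 9.35 and 10.4 FPKM in ClpX cKO, 7.33, 6.68 and 7.38 in ClpP cKO, and 5.42, 5.49 and 5.86 in controls. Its ClpP cKO libraries also lay above every control, yet only the ClpX cKO change of 0.57 (SE 0.13, adjusted p = 0.0045) passed, while the ClpP cKO value was 0.30 (SE 0.13, adjusted p = 0.082). The ClpP cKO value was called in the 6-library fit (0.013), without ClpX cKO 1 (0.0097) and under own-total scaling (0.46, 0.025), and not under voom (0.14).

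Dnmt3b, a de novo DNA methyltransferase of differentiating spermatogonia, was at 4.01, 5 and 5.08 FPKM in ClpX cKO, 3.4, 3.57 and 4.56 in ClpP cKO, and 2.13, 2.38 and 2.57 in controls. Dazl had 83, 96.9 and 104 FPKM in ClpX cKO, 74.6, 85.6 and 76.1 in ClpP cKO, and 53.1, 52.3 and 57.2 in controls. For both genes every knockout library lay above every control. Dnmt3b rose by 0.76 in ClpX cKO (SE 0.12) and 0.52 (SE 0.12) in ClpP cKO, and Dazl by 0.79 (SE 0.10) and 0.53 (SE 0.10).

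**Figure D3:**
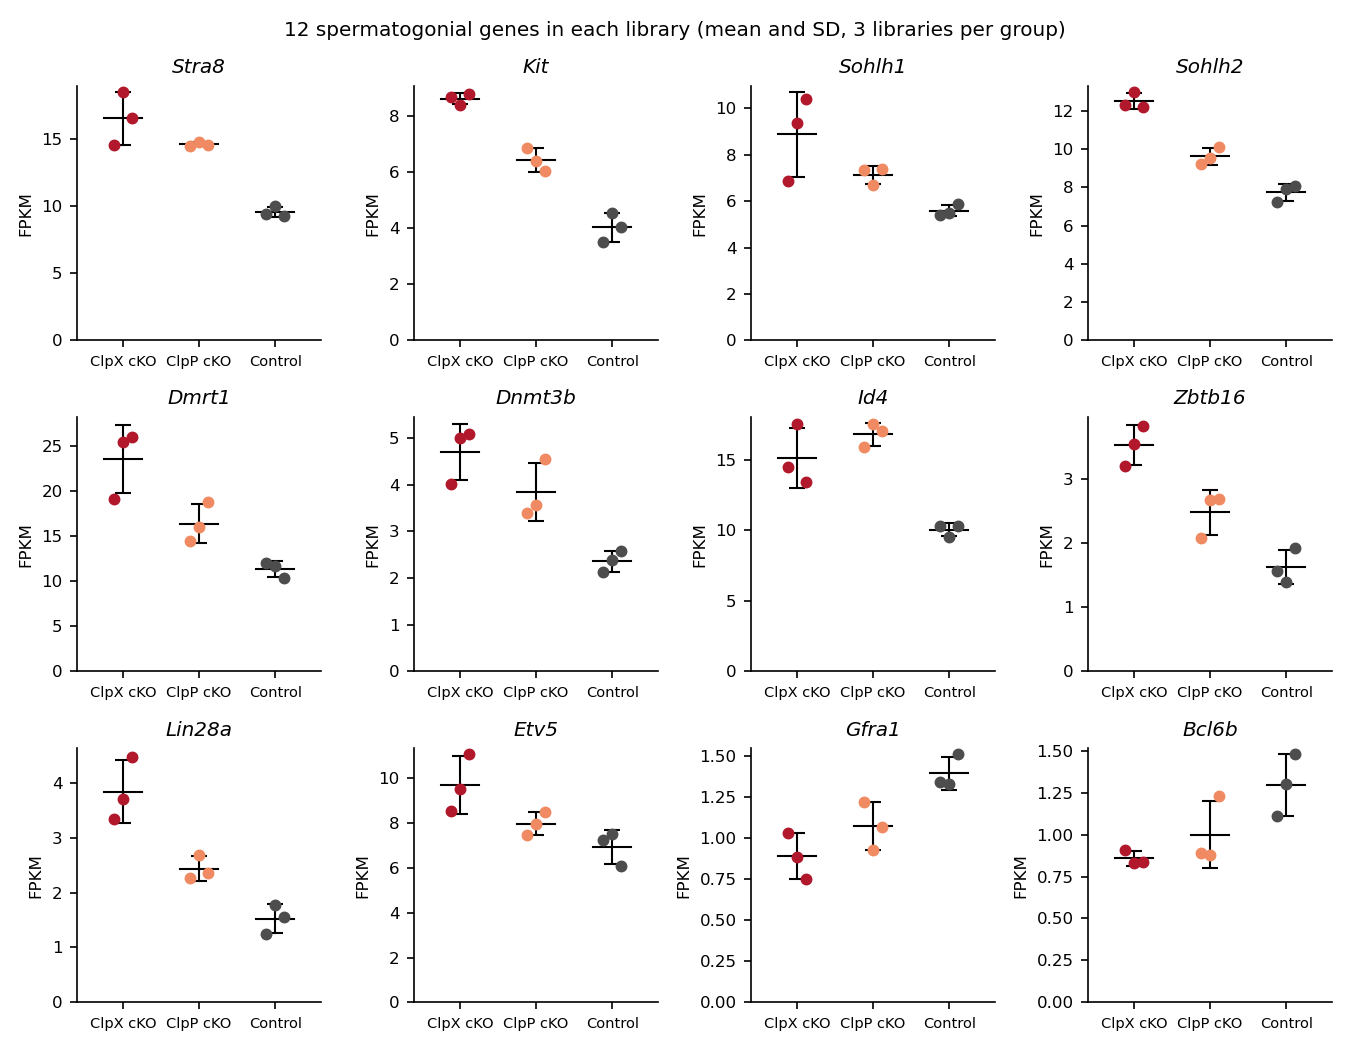
FPKM (vertical axis, from 0) of 12 spermatogonial genes in each library, by group (horizontal axis); points are libraries, the wide line is the mean and the bar is the SD over 3 libraries. Kit, Sohlh2, Dmrt1, Zbtb16 and Lin28a step down from ClpX cKO over ClpP cKO to control without overlap, Id4 is highest in ClpP cKO by mean, and Gfra1 and Bcl6b are lowest in ClpX cKO by mean.

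Regulators of the undifferentiated state did not all move together. Of the 10 tested among 14, 6 were called higher and 1 lower in ClpX cKO (median 0.51), and 4 higher and 0 lower in ClpP cKO (median 0.23). Taken in either direction, these counts were close to the shares of all tested genes called, 65.6% and 44.7%. Among protein-coding genes 40.1% were called higher in ClpX cKO and 25.8% in ClpP cKO. Lin28a (ENSMUSG00000050966, chromosome 4, 134003330 to 134018841), an RNA-binding protein that blocks let-7 maturation, had 3.34, 3.7 and 4.47 FPKM in ClpX cKO, 2.26, 2.69 and 2.35 in ClpP cKO, and 1.24, 1.77 and 1.56 in controls. Zbtb16, the zinc finger repressor PLZF that preserves stem cells, had 3.21, 3.56 and 3.84 FPKM in ClpX cKO, 2.08, 2.68 and 2.7 in ClpP cKO, and 1.57, 1.4 and 1.93 in controls. In both cases the 3 groups were fully separated.

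Lin28a rose by 0.94 in ClpX cKO (SE 0.12, adjusted p = 4.9e-04) and by 0.45 in ClpP cKO (SE 0.12, adjusted p = 0.02), and Zbtb16 by 0.79 (SE 0.12, adjusted p = 7.0e-04) and 0.40 (SE 0.12, adjusted p = 0.024). Sall4, a zinc finger factor that works beside PLZF, was at 2.03, 3 and 2.61 FPKM in ClpX cKO, 1.93, 1.87 and 2.45 in ClpP cKO, and 1.14, 1.29 and 1.33 in controls. All knockout libraries were above the controls, and Sall4 rose by 0.65 in ClpX cKO (SE 0.13) and 0.45 (SE 0.13) in ClpP cKO. The ClpP cKO calls of these 3 genes each depended on single libraries. Without Control 1, for example, the adjusted p was 0.068 for Lin28a, 0.07 for Zbtb16 and 0.074 for Sall4, and without ClpP cKO 3 it was 0.054, 0.081 and 0.083. Without ClpP cKO 2 the same values were 0.072, 0.082 and 0.05, and without Control 2 Zbtb16 was at 0.076 and Sall4 at 0.055.

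Id4, an inhibitor of helix-loop-helix factors and a marker of stem cells, was the only gene called higher whose ClpP cKO mean exceeded its ClpX cKO mean. It had 14.5, 17.5 and 13.4 FPKM in ClpX cKO, 15.9, 17.5 and 17 in ClpP cKO, and 10.3, 9.52 and 10.3 in controls. Both knockouts stood above the controls and overlapped each other. The change was 0.54 (SE 0.10, adjusted p = 0.0016) in ClpX cKO and 0.69 (SE 0.10, adjusted p = 0.0086) in ClpP cKO, the largest among the 25 in that comparison on the log2(FPKM + 1) scale. As a ratio of mean FPKM, Ccnd2 (1.78) and Rhox13 (1.71) exceeded Id4 (1.67).

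Foxo1, a forkhead factor required for stem cell maintenance, had 3.29, 3.94 and 4.32 FPKM in ClpX cKO, 2.58, 3.09 and 2.69 in ClpP cKO, and 1.99, 2.12 and 2.24 in controls. Its groups did not overlap, and it rose by 0.63 in ClpX cKO (SE 0.10, adjusted p = 0.001), while the ClpP cKO value of 0.28 (SE 0.10) had an adjusted p of 0.054. That value was called under voom (0.036), in the 6-library fit (0.038), among protein-coding genes alone (0.035), with a pseudocount of 0.1 (0.045) and under own-total scaling (0.41, 0.019). The GDNF-responsive ETS factor Etv5 had 8.52, 9.52 and 11.1 FPKM in ClpX cKO, 7.46, 7.97 and 8.51 in ClpP cKO, and 7.23, 7.53 and 6.08 in controls. It rose by 0.43 in ClpX cKO (SE 0.11, adjusted p = 0.0082), and ClpP cKO overlapped the controls (0.18, SE 0.11, adjusted p = 0.2). This ClpP cKO value was called only under own-total scaling (0.34, adjusted p = 0.031).

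Bcl6b, a transcriptional repressor also induced by GDNF, was called lower in ClpX cKO, at the edge of the threshold. It had 0.91, 0.83 and 0.835 FPKM in ClpX cKO, 0.888, 0.881 and 1.23 in ClpP cKO, and 1.11, 1.3 and 1.48 in controls, from 164, 184 and 208 reads per group. Only the ClpX cKO libraries all lay below the controls. Like Gfra1, Bcl6b passed the filter through the groups where it was higher, which favours a lower call. The change of -0.30 (SE 0.12, adjusted p = 0.048) in ClpX cKO was lost under many alternatives. Leaving out any library other than Control 1 or ClpP cKO 3 gave an adjusted p of 0.06 or more, and own-total scaling gave -0.19 (adjusted p = 0.2). It was also lost without the filter (adjusted p = 0.095), with a pseudocount of 0.1 (0.06) and under quantile normalization (-0.24, 0.13), and stood under voom (0.027) and median-of-ratios scaling (0.046). The ClpP cKO value was -0.20 (SE 0.12, adjusted p = 0.19).

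No call was made by limma in either knockout for Egr4, Nanos3 or Utf1. Egr4, an early growth response factor, spanned 8.54 to 11 FPKM in ClpX cKO, 8.87 to 11.3 in ClpP cKO and 7.99 to 9.75 in controls. The 95% interval of its log2 change was -0.20 to 0.35 in ClpX cKO and -0.17 to 0.38 in ClpP cKO. Nanos3, a translational repressor of germ cells, rested on 60, 55 and 45 reads in ClpX cKO, ClpP cKO and controls, and its intervals (-0.45 to 0.63 and -0.51 to 0.56) allow changes of either sign. Utf1, a chromatin protein of undifferentiated spermatogonia, had 1.11, 1.63 and 2.53 FPKM in ClpX cKO, 0.756, 1.31 and 0.589 in ClpP cKO, and 0.512, 0.694 and 1.79 in controls. Control 3 lay above the other controls, and the ClpX cKO change was 0.75 (adjusted p = 0.029) without it, against 0.49 (adjusted p = 0.15) with all libraries. Utf1 passed the filter only through ClpX cKO, and leaving out its highest control raises the change by construction. That call is thus no support for a rise.

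Of the 4 untested regulators, Pou5f1, the pluripotency factor OCT4, had 0.766, 0.635 and 0.443 FPKM in ClpX cKO, 0.644, 1.6 and 0.938 in ClpP cKO, and 1.68, 1.49 and 0.49 in controls. Control 3 lay at the level of ClpX cKO for this gene. Neurog3, a marker of transit-amplifying undifferentiated cells, had 31, 24 and 19 reads in total in ClpX cKO, ClpP cKO and controls, and 16.3% of its exon bases lie opposite exons of Fam241b. Prdm1, a repressor best known from primordial germ cells, had 29, 35 and 20. Nanos2, the repressor that holds stem cells undifferentiated, was read 5 times in the ClpX cKO group, 0 times in ClpP cKO and 3 times in controls, too few to compare.

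Among receptors and surface proteins, Gfra1 and Ret encode the 2 chains of the GDNF receptor. Gfra1 (ENSMUSG00000025089, chromosome 19, 58235604 to 58455909), the ligand-binding chain, had 1.03, 0.887 and 0.749 FPKM in ClpX cKO, 1.22, 0.927 and 1.07 in ClpP cKO, and 1.34, 1.33 and 1.51 in controls. Every knockout library lay below every control. It fell by 0.34 on the log2 scale (SE 0.11, adjusted p = 0.023) in ClpX cKO, and was at -0.21 (SE 0.11, adjusted p = 0.15) in ClpP cKO. Its ClpX cKO mean of 0.889 FPKM was under the filter of 1. It was tested through the groups where it was higher, which favours a lower call. The ClpX cKO call was lost without Control 1 (adjusted p = 0.051), Control 3 (0.07), ClpX cKO 2 (0.054) or ClpX cKO 3 (0.066). It was also lost without the filter (-0.34, adjusted p = 0.051), under quantile normalization (-0.27, 0.05) and with own totals of gene reads as the scale (-0.23, 0.11).

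Ret (chromosome 6, 118151745 to 118197718), the signalling chain, was at 1.08, 1.27 and 1.58 FPKM in ClpX cKO, 0.557, 0.542 and 0.686 in ClpP cKO, and 0.372, 0.319 and 0.738 in controls. ClpX cKO lay above all other libraries, with a mean 2.75 times that of controls, and ClpP cKO overlapped the controls. Its overall mean was under the filter. In the alternative fit without a filter it was called higher in ClpX cKO (0.65, SE 0.14, adjusted p = 0.0097), as was Cdh1 (0.40, SE 0.11, adjusted p = 0.027), and no other untested member was called in any comparison. In that fit 29.1% of all genes were called in ClpX cKO in either direction, so calls among the untested members were no more common than the background.

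Kit (ENSMUSG00000005672, chromosome 5, 75574916 to 75656722), the stem cell factor receptor of differentiating spermatogonia, had 8.68, 8.42 and 8.79 FPKM in ClpX cKO, 6.88, 6.39 and 6.04 in ClpP cKO, and 3.5, 4.56 and 4.05 in controls. The 3 groups were separate, and the ClpX cKO libraries were close to each other (8.63 ± 0.189 FPKM, SD, n = 3). Kit rose by 0.94 in ClpX cKO (SE 0.09, adjusted p = 4.5e-04) and by 0.57 in ClpP cKO (SE 0.09, adjusted p = 0.0086). Both calls held in all 9 fits that left out 1 library.

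Rarg, the retinoic acid receptor of undifferentiated spermatogonia, had 2.15, 3.18 and 2.83 FPKM in ClpX cKO, 1.65, 1.75 and 2.22 in ClpP cKO, and 1.38, 1.37 and 1.43 in controls. It rose by 0.63 in ClpX cKO (SE 0.13, adjusted p = 0.0028), and the ClpP cKO value was 0.26 (SE 0.13, adjusted p = 0.13) although its 3 libraries lay above the controls. Crabp1, which binds retinoic acid in the cytosol, had 9.69, 13.8 and 14.8 FPKM in ClpX cKO, 6.57, 10 and 12.7 in ClpP cKO, and 6.79, 8.24 and 7.5 in controls. It was called in ClpX cKO (0.68, SE 0.22, adjusted p = 0.024) and the ClpP cKO libraries ran from below all controls to above them (0.30, SE 0.22, adjusted p = 0.28). Without Control 1, Control 3, ClpX cKO 2 or ClpX cKO 3 the ClpX cKO call was lost, with adjusted p between 0.052 and 0.085.

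Of the adhesion genes, Epcam, an epithelial adhesion molecule found on spermatogonia, averaged 19.7 ± 0.942 FPKM in ClpX cKO, 17.5 ± 1.77 in ClpP cKO and 17.7 ± 2.13 in controls (SD, n = 3 each), with log2 changes of 0.16 (95% interval -0.08 to 0.39) and -0.01 (-0.25 to 0.23). It was called higher in ClpX cKO under own-total scaling (0.37) and quantile normalization (0.32). Cdh1, E-cadherin, was at 0.506, 0.762 and 0.858 FPKM in ClpX cKO, 0.418, 0.534 and 0.448 in ClpP cKO, and 0.229, 0.215 and 0.433 in controls, from 167, 105 and 57 reads. ClpX cKO lay above the controls, and ClpP cKO overlapped both.

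The D-type cyclins bring spermatogonia into the cell cycle, and Ccnd2 is the form tied to differentiation. Ccnd2 had 2.24, 3.18 and 3.07 FPKM in ClpX cKO, 2.1, 2.07 and 2.23 in ClpP cKO, and 1.28, 1.13 and 1.19 in controls. The 3 groups did not overlap. It rose by 0.79 in ClpX cKO (SE 0.11, adjusted p = 6.3e-04) and by 0.51 in ClpP cKO (SE 0.11, adjusted p = 0.012). Ccnd1 had 2.9, 3.81 and 3.86 FPKM in ClpX cKO, 3.01, 3.02 and 3.52 in ClpP cKO, and 2.03, 1.82 and 2.29 in controls, and rose by 0.56 (SE 0.11) and 0.46 (SE 0.11), the ClpP cKO call being lost without Control 2 (adjusted p = 0.052) or ClpP cKO 3 (0.058). Of its exon bases 23.4% lie opposite exons of LTO1 (mean 2.97 FPKM), and without strand information reads from the 2 genes cannot be told apart there.

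Uchl1, a ubiquitin hydrolase long used as a spermatogonial marker, had 38, 42.8 and 51.4 FPKM in ClpX cKO, 31.7, 39.1 and 40 in ClpP cKO, and 27, 32.4 and 25.3 in controls. It rose by 0.62 in ClpX cKO (SE 0.14, adjusted p = 0.0045), and in ClpP cKO it was at 0.37 (SE 0.14, adjusted p = 0.056), with 1 library inside the range of the controls. The ClpP cKO value was called without Control 2, ClpP cKO 1, ClpX cKO 1 or ClpX cKO 3, at adjusted p of 0.036 to 0.047, and also under voom (0.049) and own-total scaling (0.55, 0.013). Upp1, uridine phosphorylase and an untested gene, had 0.605, 1.11 and 0.897 FPKM in ClpX cKO, 0.857, 1.25 and 0.768 in ClpP cKO, and 0.427, 0.568 and 0.524 in controls. Both knockouts lay above the controls, on 88, 92 and 43 reads.

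Set directly against each other, ClpX cKO and ClpP cKO gave no call for any of the 25 genes by limma, and 0.104% of all tested genes were called (0.0463% higher and 0.0579% lower; 0.0312% in each direction among protein-coding genes). The unadjusted p was under 0.05 for 10 members, all higher in ClpX cKO, and for 27.8% of all tested genes, and limma voom on recovered reads also called 0 members. The median log2 difference was 0.26, against 0.03 for protein-coding genes. For 8 members the 3 ClpX cKO libraries lay above all ClpP cKO libraries (Zbtb16, Etv5, Lin28a, Foxo1, Kit, Sohlh2, Dmrt1 and Ccnd2) and for 0 below, beside 14.9% of all tested genes in each direction. The smallest p was that of Sohlh2 (0.35 higher in ClpX cKO, 95% interval 0.19 to 0.50, adjusted p = 0.081), followed by Kit (0.37, interval 0.17 to 0.58). For Id4 the difference was -0.15, with an interval of -0.37 to 0.07.

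A single library weighed on this comparison. ClpX cKO 1 had the smallest median difference from the ClpP cKO mean over the 25 genes (0.06, against 0.32 for ClpX cKO 2 and 0.39 for ClpX cKO 3), and also more elongating spermatid RNA (2930 summed FPKM, against 1950 and 2030) and less Sertoli RNA (849, against 1000 and 1170). Without it 11 of the 25 were called higher in ClpX cKO (Zbtb16, Lin28a, Foxo1, Kit, Rarg, Stra8, Sohlh1, Sohlh2, Dmrt1, Dazl and Ccnd2), while the share of all tested genes called in either direction was 27.6%. Without both ClpX cKO 1 and Control 3 it was 13, with Etv5 and Utf1 added, and 29.8% of all genes. Leaving out the library with the smallest member difference moves these members towards higher calls by construction. The calls made without ClpX cKO 1 are thus no separate evidence of a difference. Utf1 also passed the filter only through ClpX cKO. Without Control 3 alone, 1 member, Sohlh2, was called, and 2.58% of all genes.

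Other gene lists of the same pathways were read beside the 25, and their counts stand against 40.1% called higher and 30.5% lower among tested protein-coding genes in ClpX cKO, and 25.8% and 23.5% in ClpP cKO. Of 16 tested in a wider list of 26 spermatogonial genes, 12 were called higher and 1 lower in ClpX cKO (median 0.69), and 8 higher and 1 lower in ClpP cKO (median 0.36). Tcf3, an E protein partner of helix-loop-helix factors, averaged 17.8 ± 2.25 FPKM in ClpX cKO, 12.6 ± 0.533 in ClpP cKO and 8.1 ± 0.446 in controls (SD, n = 3 each). Taf4b, a transcription cofactor needed to maintain spermatogonia, averaged 12.5 ± 1.33, 10.9 ± 0.328 and 7.42 ± 0.29 FPKM in ClpX cKO, ClpP cKO and controls. The gene that fell was Dnmt3l, a cofactor of de novo methyltransferases, at 0.736 ± 0.149 FPKM in ClpX cKO, 1.27 ± 0.342 in ClpP cKO and 2.8 ± 0.191 in controls (-1.13, SE 0.13, adjusted p = 4.5e-04 in ClpX cKO, and -0.75, SE 0.13, adjusted p = 0.0086 in ClpP cKO). Its direction was opposite to that of Dnmt3b.

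Of 14 tested retinoic acid genes among 18 listed, 7 were called higher and 2 lower in ClpX cKO (median 0.38), and 5 higher and 1 lower in ClpP cKO (median 0.25). Cyp26b1, which degrades retinoic acid, averaged 22.7 ± 3.7 FPKM in ClpX cKO, 15.7 ± 1.74 in ClpP cKO and 9.51 ± 1.28 in controls, a rise of 1.17 (SE 0.14, adjusted p = 4.6e-04) in ClpX cKO and 0.67 (SE 0.14, adjusted p = 0.011) in ClpP cKO. Rdh11, a retinol dehydrogenase, fell to 52 ± 3.27 FPKM in ClpX cKO and 66.9 ± 2.08 in ClpP cKO, against 90.7 ± 5.38 in controls, and the retinoid X receptor gene Rxrb rose by 0.63 in ClpX cKO (SE 0.10) and 0.42 (SE 0.10) in ClpP cKO. Of 12 niche ligand genes 6 were tested, 4 called higher and 2 lower in ClpX cKO (median 0.44), and 1 higher and 2 lower in ClpP cKO (median 0.27). Kitl, the ligand of KIT made by Sertoli cells, averaged 10.5 ± 2.33 FPKM in ClpX cKO, 7.91 ± 0.227 in ClpP cKO and 5.22 ± 0.748 in controls, and so moved in the same direction as Kit. Csf1, a colony-stimulating factor, rose by 0.74 in ClpX cKO (SE 0.13) and was at 0.35 (SE 0.13, adjusted p = 0.05) in ClpP cKO, where it was not called, and Artn, a GDNF family ligand, fell by 0.66 in ClpX cKO (SE 0.12) and by 0.33 in ClpP cKO (SE 0.12).

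Genes that act just after the spermatogonial stage were called in both directions. Of 16 tested meiotic initiation genes among 18 listed, 8 were called higher and 2 lower in ClpX cKO (median 0.29), and 9 higher and 1 lower in ClpP cKO (median 0.36). Meiob, a single-strand DNA binding protein of recombination, averaged 28.3 ± 3 FPKM in ClpX cKO, 22.6 ± 3 in ClpP cKO and 14 ± 1.24 in controls, the recombinase gene Dmc1 averaged 15.6 ± 1.28, 12.5 ± 0.716 and 9.14 ± 0.398, and Hormad1, of the chromosome axis, rose by 0.47 in ClpX cKO (SE 0.08) and 0.31 (SE 0.08) in ClpP cKO. Of 20 mitotic cycle genes 12 were called higher and 3 lower in ClpX cKO (median 0.49), and 9 higher and 3 lower in ClpP cKO (median 0.35). The replication helicase gene Mcm4 averaged 8.98 ± 1.29, 7.01 ± 0.168 and 4.88 ± 0.412 FPKM in ClpX cKO, ClpP cKO and controls, and the cell cycle inhibitor gene Cdkn1a 4.71 ± 0.305, 3.68 ± 0.104 and 2.15 ± 0.465. Ccnd3, unlike the member cyclins Ccnd1 and Ccnd2, fell to 7.18 ± 0.973 FPKM in ClpX cKO and 8.52 ± 0.756 in ClpP cKO, against 13.1 ± 0.911 in controls.

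Markers of other cells completed the comparison. In ClpX cKO, 9 of 9 tested macrophage genes, 6 of 8 peritubular and stromal genes and 3 of 9 Leydig genes were called higher and none lower, with medians of 0.77, 0.70 and 0.68. In ClpP cKO the counts were 4, 2 and 1, also with none lower, and the medians 0.35, 0.32 and 0.59. Of protein-coding genes 40.1% and 25.8% were called higher in ClpX cKO and ClpP cKO. Against these shares the Leydig counts, and the peritubular and stromal count in ClpP cKO, were no higher than the background. All 10 round spermatid genes were called lower in ClpX cKO (median -1.10) and 9 of 10 in ClpP cKO (median -0.77), and of 10 pachytene genes 7 and 6 were called lower (medians -0.48 and -0.36) and 0 higher. Summed FPKM in ClpX cKO, ClpP cKO and controls ran over 89.5 to 109, 60 to 85.7 and 47.5 to 55 for macrophage genes, over 96.6 to 153, 84.3 to 107 and 62.7 to 97.5 for peritubular and stromal genes, and over 403 to 632, 413 to 602 and 245 to 444 for Leydig genes. For round spermatid genes the sums were 219 to 403, 327 to 421 and 575 to 654, and for pachytene genes 1860 to 2460, 2540 to 2620 and 3360 to 3460, in the same order of groups. Each list had 10 genes, of which 0 were at 0 in every library, and the part of any of these cells in the spermatogonial values was not tested. In ClpX cKO the spermatogonial median of 0.63 lay below those of the macrophage, peritubular and stromal, Leydig and Sertoli (0.95) lists. In ClpP cKO the median of 0.37 lay below the Leydig and Sertoli (0.54) medians and slightly above the macrophage and the peritubular and stromal ones. Both spermatogonial medians lay above those of pachytene and spermatid genes.

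**Figure D4:**
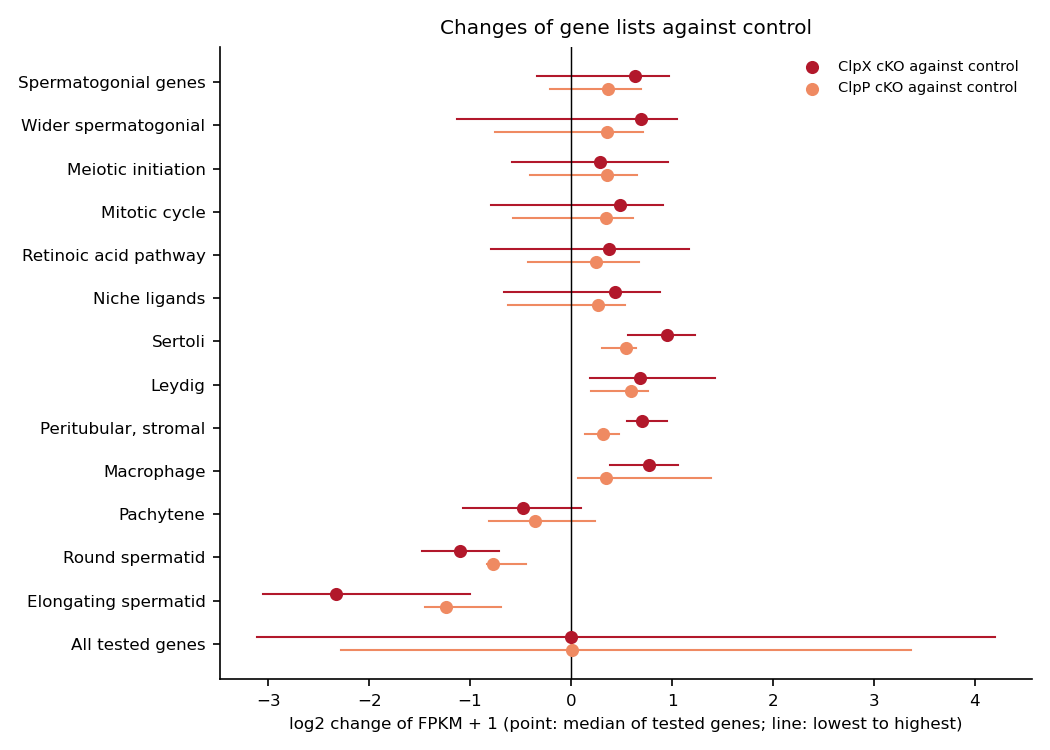
Log2 change of FPKM + 1 against control (horizontal axis) by gene list (vertical axis), in ClpX cKO (dark red) and ClpP cKO (orange); points are medians of tested genes and lines run from the lowest to the highest gene. The spermatogonial genes have medians of 0.63 and 0.37, Sertoli markers 0.95 and 0.54, and elongating spermatid markers -2.33 and -1.24.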

How the data were processed

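The deposited table holds FPKM computed by the authors for each of the 9 libraries. The build is GRCm38 (mm10) per the submitters' processing notes, and the aligner and counter are not given in the sources used here. Reads were recovered as FPKM times the deposited gene length, divided by the smallest step in that library, and 100% of values came out whole (tolerance 0.01). The total that the authors divided by was 1.07 ± 0.017 times the gene reads in ClpX cKO, 1.05 ± 0.0037 in ClpP cKO and 0.919 ± 0.028 in controls (SD, n = 3 each), a factor of unstated origin.

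The 17266 genes whose mean FPKM reached 1 were fitted as log2(FPKM + 1) with limma 3.58.1 in R 4.3.3. A single model took the 9 libraries, left 6 residual degrees of freedom and used a variance trend. Folds on that scale understate changes of low genes. Calls are two-sided at a Benjamini-Hochberg adjusted p under 0.05 over all tested genes. Alternatives were another pseudocount, other filters, 3 scalings, 6-library fits, a replicate block, protein-coding genes only, voom on recovered reads, and leaving out libraries.

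The 32 genes, the 12 other lists and the alternatives were chosen with earlier results of these data known, and no list was tested as a set. All 32 genes are named. From each other list the text names at most the 3 called genes with the smallest adjusted p in ClpX cKO against control. Exons came from GENCODE mouse release 21 of the M series, where all 32 identifiers were found.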

Additional observations from a re-analysis of the deposited data

How the results depend on the processing

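Of 34 member calls against control, 34 stood under median-of-ratios scaling, voom and with protein-coding genes only, and 27 without a filter. Of the 13 ClpP cKO calls, 6 stood in all 9 fits that left out 1 library, and of the 21 ClpX cKO calls, 18. Left-out libraries gave 18 to 21 calls in ClpX cKO (median 0.60 to 0.72), 6 to 16 in ClpP cKO (0.31 to 0.48) and 0 to 11 between the knockouts (0.19 to 0.35). In the same fits the share of all tested genes called ran from 56.9% to 68.2%, from 20.9% to 50.6% and from 0% to 27.6%. The lowest ClpP cKO counts were 6 without ClpP cKO 3, 8 without ClpP cKO 2 and 8 without Control 1, with 23.4%, 20.9% and 24.3% of all genes called. A mean FPKM of at least 5, which leaves 13 members, gave 11 calls in ClpX cKO and 8 in ClpP cKO. At that filter 73.1% and 57.8% of all genes were called, so the ClpP cKO count was near the background. Own-total scaling gave ClpP cKO a member median of 0.52, but moved the median of all genes to 0.16, and to 0.18 in ClpX cKO. Without Control 3 and ClpX cKO 1, the latter with the smallest median member difference of its group, 13 members were called between the knockouts, and 29.8% of all genes in either direction. With the replicate block, 20 members were called in ClpX cKO, 15 in ClpP cKO and 0 between the knockouts, with medians of 0.63, 0.37 and 0.26. The shares of all genes called were 65.4%, 45.4% and 0.00579%. Of the calls against control 1 was lost, that of Bcl6b (adjusted p = 0.06), while in ClpP cKO Foxo1 (0.046) and Uchl1 (0.042) were gained. Correlations of deviations ran from -0.07 to 0.23 between same-numbered libraries, 8 of 9 of them positive, and from -0.24 to 0.11 between differently numbered ones. No label ties the numbers to a shared animal or batch, so the numbers were not taken to pair the libraries. Whether same-numbered libraries shared a batch cannot be told from these values.

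Direction changed 23 times, always for values that were not called. Over the fits that left out 1 library, Egr4 ran from -0.01 to 0.15 in ClpX cKO against control and from -0.12 to 0.05 between the knockouts. Nanos3 ran from -0.07 to 0.23 in ClpX cKO and from -0.19 to 0.19 in ClpP cKO against control, and from -0.11 to 0.28 between the knockouts. In ClpP cKO against control Utf1 ran from -0.23 to 0.22 and Epcam from -0.11 to 0.07. Own-total scaling gave 0.03 for Utf1 and 0.16 for Epcam in ClpP cKO and 0.00 for Egr4 between the knockouts. Quantile normalization gave -0.01 for Nanos3 and 0.09 for Epcam in ClpP cKO and 0.01 for Bcl6b between the knockouts. Without Control 3 and ClpX cKO 1, Egr4 was at 0.00 in ClpX cKO and Utf1 at 0.22 in ClpP cKO. The cause of these changes was not tested. Depth limits the genes with few reads, such as Nanos2, Neurog3, Prdm1 and Nanos3.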
